A study of Ovis aries with 6 samples.

Results

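The glucose and lactate handling genes are 10 named genes of the 30574 counted in ovaries of Hu sheep, taken for their roles and read gene by gene. They comprise the glucose transporters SLC2A1 and SLC2A3, the hexokinases HK1 and HK2, the glycolytic enzymes PFKP and PKM, the lactate dehydrogenase subunits LDHA and LDHB, and the lactate carriers SLC16A1 and SLC16A3. Single-cell RNA sequencing was run on the dissociated ovary of each of 6 Hu ewes in oestrus, 3 in a high-litter group (HLS, litter size of at least 3) and 3 in a low-litter group (LLS, litter size below 2). A single whole ovary was taken from each ewe, so follicles were not separated by stage, and no agent was compared. Granulosa-like states, other ovarian cell types and the HLS and LLS ewes were compared, with the ewe as the replicate.

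SLC2A1 and SLC2A3 carry glucose into the cell, and hexokinase traps it there as glucose 6-phosphate. Phosphofructokinase, of which PFKP is the platelet-type subunit, commits the sugar to glycolysis, and pyruvate kinase, encoded by PKM, yields pyruvate. Lactate dehydrogenase interconverts pyruvate and lactate as tetramers of A and B subunits, and subunit A is known to favour lactate formation whereas subunit B is known to favour lactate oxidation. SLC16A1 (MCT1) and SLC16A3 (MCT4) move lactate across the membrane, and granulosa cells are known to pass pyruvate and lactate to the oocyte, which uses glucose poorly by itself.

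The 6 libraries held 43329214 to 75549906 unique molecular identifiers (UMIs, each a captured transcript counted once). After filtering, 36457 cells were retained, and they were grouped by clustering that left out the 10 genes and the other genes of the pathway. The comparison covered 7 cell types, each with at least 10 cells in every ewe, namely granulosa-like (2770 cells), endothelial-like (14847), stromal-like (8872), theca-like (1566), perivascular-like (2555), macrophage-like (990) and T/NK-like (1661). The summed granulosa markers reached 1051 to 3288 CPM (UMIs in 1000000 UMIs of a cell type in a ewe) in granulosa-like cells and at most 393 in any other of these types. The macrophage markers reached 2873 to 7374 in macrophage-like cells and 12.9 to 21.3 in granulosa-like cells. Markers of endothelial cells stood at 394 to 1038 in macrophage-like cells, against 2586 to 3888 in endothelial-like cells, and their part in the macrophage-like values was not tested. Pairs of ewes shared at most 20 to 28 cell barcodes. Levels are given as CPM, and since each molecule was counted once at its 3′ end they need no scaling by length, although capture still differs between genes. Fewer cells of a type do not lower such a level. CPM, and the orders of types and steps read from it, are scaled to total UMIs without TMM factors, which the edgeR differences use. Against the TMM scaling, CPM moved the median of all genes by 0.16 log2 units in granulosa-like and by -0.19 in macrophage-like cells. A step between types can therefore differ between the scalings. Between types and states, p-values measure how much the within-ewe differences vary, and for HLS against LLS they measure the spread between ewes.

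SLC2A1, the widely expressed glucose carrier, was highest in granulosa-like cells taken over all their states. Its level there ran from 48.7 to 81.4 CPM with a median of 67.0 over the 6 ewes. The next type in CPM was macrophage-like, at 40.9 ± 20.5 (SD, n = 6), and granulosa-like cells stood above it in 6 of 6 ewes. Below that, no neighbouring pair in the order macrophage-like, T/NK-like, perivascular-like, endothelial-like, theca-like and stromal-like differed by more than the SD of the within-ewe difference. Against the mean of the other 6 types, SLC2A1 was 1.03 ± 0.14 (SE) log2 units higher in granulosa-like cells (edgeR adjusted p = 1.34e-07), and it was 0.92 lower in stromal-like cells (edgeR, SE 0.16, adjusted p = 9.02e-06). Smaller differences passed in macrophage-like cells (0.56) and in T/NK-like cells (0.46, edgeR adjusted p = 0.0482), and both were lost without ewe HLS3 and without ewe LLS2, the T/NK-like one also without ewe LLS1.

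SLC2A3, the high-affinity carrier known from neurons, white blood cells and placenta, had a different order. Endothelial-like cells held 365 to 1348 CPM with a median of 849, and T/NK-like cells held 410 to 819 with a median of 632. These were the top types, and they did not differ beyond the spread between ewes. The level then stepped down through perivascular-like (293 ± 118, SD, n = 6), macrophage-like (187 ± 58.9), stromal-like (108 ± 43.7), granulosa-like (37.4 ± 22.6) and theca-like cells (19.5 ± 7.59), each step larger than its SD. Endothelial-like cells exceeded the mean of the other types by 2.76 ± 0.14 (SE) log2 units and T/NK-like cells by 2.65 ± 0.15 (edgeR adjusted p = 2.34e-19 and 5.39e-18). Granulosa-like cells were 2.63 ± 0.22 log2 units lower and theca-like cells 3.48 ± 0.24 lower (edgeR adjusted p = 4.74e-13 and 1.98e-15). The lowest endothelial-like ewe, at 365, lay above the highest granulosa-like ewe, at 78.3. Endothelial markers stood at 2.56% of their endothelial-like level in granulosa-like, 4.80% in theca-like and 5.93% in stromal-like cells. They stood at 7.19% in perivascular-like, 8.46% in T/NK-like and 23.9% in macrophage-like cells. Their part in the SLC2A3 levels of these types, and in the steps between them, was not tested. Endothelial-like cells were not alike in all ewes. A cluster of 4080 cells had at least 10 cells in only 2 ewes, with 55.9% from LLS1, and another of 1803 was 90.1% from HLS1. The part of this makeup in the spread of the endothelial-like values was not tested.

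**Figure D1:**
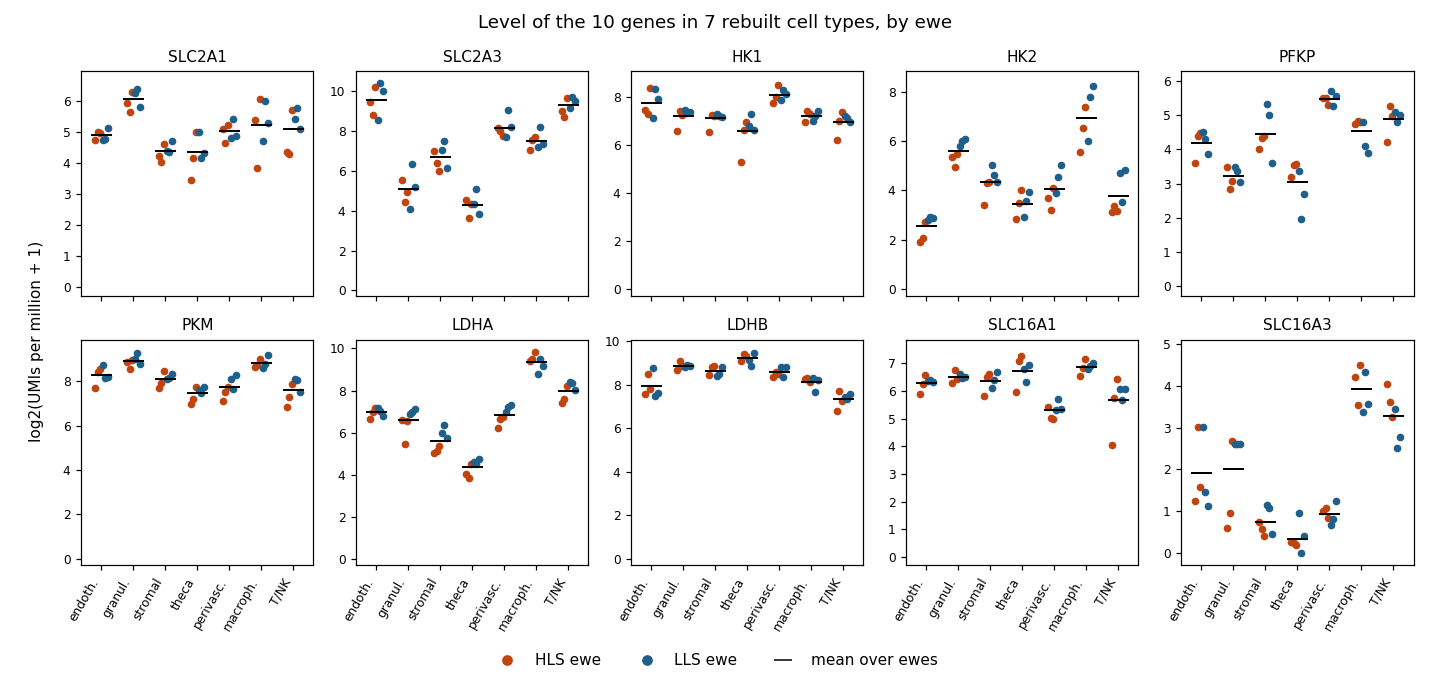
Level of each of the 10 genes in the 7 cell types, as log2 of CPM plus 1 on the vertical axis. Each point is 1 ewe, coloured by group, and the bar is the mean over ewes. SLC2A1 peaks in granulosa-like cells, SLC2A3 in endothelial-like and T/NK-like cells, LDHA and HK2 in macrophage-like cells, and LDHB in theca-like cells.

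HK1, the hexokinase most tissues use, ranged from a mean of 103 CPM in theca-like to 274 in perivascular-like cells. Perivascular-like cells were highest, at 212 to 355 CPM with a median of 265, and theca-like cells lowest, at 38.0 to 154 with a median of 104. Endothelial-like, granulosa-like, macrophage-like, stromal-like and T/NK-like cells followed each other between 224 and 128 without any neighbouring difference beyond its SD. HK1 was higher in perivascular-like cells by 0.76 ± 0.11 (SE) log2 units and in endothelial-like cells by 0.57 ± 0.11 (edgeR adjusted p = 3.10e-07 and 2.66e-05). In theca-like cells it was lower (log2 difference -0.72, SE 0.12, edgeR adjusted p = 5.06e-06), and so it was in stromal-like cells (-0.35, edgeR adjusted p = 0.0119), a call lost without ewe HLS3, without the filter and without TMM scaling factors.

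HK2, the inducible hexokinase known from muscle, fat and tumour cells, was far less even. Macrophage-like cells held 45.9 to 302 CPM with a median of 128, and granulosa-like cells held 29.6 to 66.6 with a median of 48.7. These types ranked first and second, and the steps from macrophage-like to granulosa-like and from granulosa-like to stromal-like cells (20.2 ± 7.21) were found in 6 of 6 ewes. Endothelial-like cells were lowest, at 2.76 to 6.47, and were below theca-like cells in 6 of 6 ewes. HK2 was higher by 3.37 ± 0.17 (SE) log2 units in macrophage-like cells and by 1.29 ± 0.18 in granulosa-like cells (edgeR adjusted p = 6.30e-20 and 1.12e-07), and was lower by 2.43 ± 0.22 in endothelial-like cells (edgeR adjusted p = 3.38e-12). A lower level in perivascular-like cells (log2 difference -0.57, edgeR adjusted p = 0.0391) was lost without any of ewes HLS2, HLS3, LLS1 or LLS2.

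PFKP was lowest in the follicular cell types. Granulosa-like cells held 6.11 to 10.3 CPM and theca-like cells 2.91 to 10.9, and these 2 types did not differ beyond the spread. Perivascular-like cells held 37.3 to 50.8, above T/NK-like cells (29.3 ± 6.77) in 6 of 6 ewes. PFKP was 1.51 ± 0.18 (SE) log2 units lower in granulosa-like cells and 1.25 ± 0.18 lower in theca-like cells, and 1.28 ± 0.15 higher in perivascular-like cells (edgeR adjusted p = 6.83e-09, 2.37e-07 and 2.38e-09). The other phosphofructokinase genes were not low with it in granulosa-like cells, where PFKM, the muscle-type subunit, was 0.89 log2 units higher and PFKL, the liver-type subunit, 0.37 higher (edgeR adjusted p = 0.00074 and 0.0136).

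PKM was highest in granulosa-like cells at 376 to 623 CPM (median 482) and in macrophage-like cells at 390 to 592 (median 434). The ewes of these types overlapped and their difference did not exceed its SD. Theca-like cells were lowest, at 125 to 215. PKM was higher by 0.75 ± 0.10 (SE) log2 units in granulosa-like cells and by 1.0 ± 0.10 in macrophage-like cells (edgeR adjusted p = 3.30e-08 and 1.98e-11). With TMM factors the macrophage-like difference was thus the larger, the reverse of the order of the mean CPM. PKM was lower in theca-like cells (log2 difference -0.75, edgeR adjusted p = 2.87e-07) and in perivascular-like cells (-0.64, edgeR adjusted p = 7.16e-06).

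LDHA had a wide range across types, from 20.3 CPM in theca-like cells to 672 in macrophage-like cells. Macrophage-like cells held 435 to 901 with a median of 698, and every ewe lay above the highest T/NK-like ewe, at 338. T/NK-like cells held 169 to 338 with a median of 277, above endothelial-like cells in 6 of 6 ewes. Endothelial-like (125 ± 18.2, SD, n = 6), perivascular-like (118 ± 30.8) and granulosa-like cells (103 ± 33.9) did not differ beyond the spread from their neighbours in this order. Stromal-like cells held 31.6 to 82.2 and theca-like cells 13.6 to 25.8, each below the previous type in 6 of 6 ewes. LDHA was higher by 3.20 ± 0.11 (SE) log2 units in macrophage-like cells and by 1.63 ± 0.13 in T/NK-like cells (edgeR adjusted p = 7.34e-25 and 1.96e-13). It was lower by 1.57 ± 0.15 in stromal-like cells and by 2.86 ± 0.18 in theca-like cells (edgeR adjusted p = 4.21e-11 and 1.98e-16). In granulosa-like cells the difference was -0.40 (edgeR, SE 0.14, adjusted p = 0.0161), and without ewe HLS2, the lowest ewe at 43.0, it was -0.28 (edgeR adjusted p = 0.105). It was also not called without TMM factors (-0.22, edgeR adjusted p = 0.180) or at a mitochondrial limit of 20% (-0.31, edgeR adjusted p = 0.0597).

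LDHB was high in every type and ran in another order. Theca-like cells held 464 to 707 CPM (median 593), granulosa-like cells 408 to 544 (median 460) and stromal-like cells 340 to 466 (median 402). Each of these steps was found in 5 of 6 ewes and exceeded its SD. T/NK-like cells were lowest, at 111 to 206, below endothelial-like cells in 6 of 6 ewes. LDHB was higher by 1.02 ± 0.09 (SE) log2 units in theca-like cells and by 0.39 ± 0.10 in granulosa-like cells (edgeR adjusted p = 6.01e-12 and 0.000844). It was lower in T/NK-like cells (log2 difference -0.97) and endothelial-like cells (-0.48, edgeR adjusted p = 3.80e-09 and 0.00013). Across the 7 types the range of mean LDHB levels, 165 to 595, was narrower than that of LDHA.

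SLC16A1, the carrier that most tissues use to take up or release lactate, ranged from a mean of 39.0 CPM in perivascular-like to 117 in macrophage-like cells. Macrophage-like cells (117 ± 16.6, SD, n = 6) and theca-like cells (110 ± 34.3) were highest, and no neighbouring pair in the order differed beyond its SD. SLC16A1 was higher by 0.88 ± 0.12 (SE) log2 units in macrophage-like and by 0.62 ± 0.12 in theca-like cells, and was lower by 1.3 ± 0.14 in perivascular-like cells, which held 31.0 to 51.0 (edgeR adjusted p = 4.62e-08, 1.58e-05 and 5.22e-10). Granulosa-like cells held 78.3 to 108, and their difference of 0.13 ± 0.12 from the other types did not pass (edgeR adjusted p = 0.385).

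SLC16A3, the carrier known from strongly glycolytic cells, was scarce. It was counted in macrophage-like cells with 122 UMIs over all ewes, or 9.34 to 21.8 CPM, and in T/NK-like cells with 40 UMIs, or 4.69 to 15.5 CPM. Granulosa-like cells gave 104 UMIs at 0.51 to 5.43 CPM, and theca-like cells gave 6 UMIs in all, with 0 in ewe LLS2, where a count of 0 allows up to 3 UMIs. The gene was higher in macrophage-like and T/NK-like cells (edgeR adjusted p = 8.57e-11 and 1.68e-05) and lower in theca-like and stromal-like cells (edgeR adjusted p = 1.21e-05 and 0.000112). The size of these folds depends on the prior count and is not given.

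**Figure D2:**
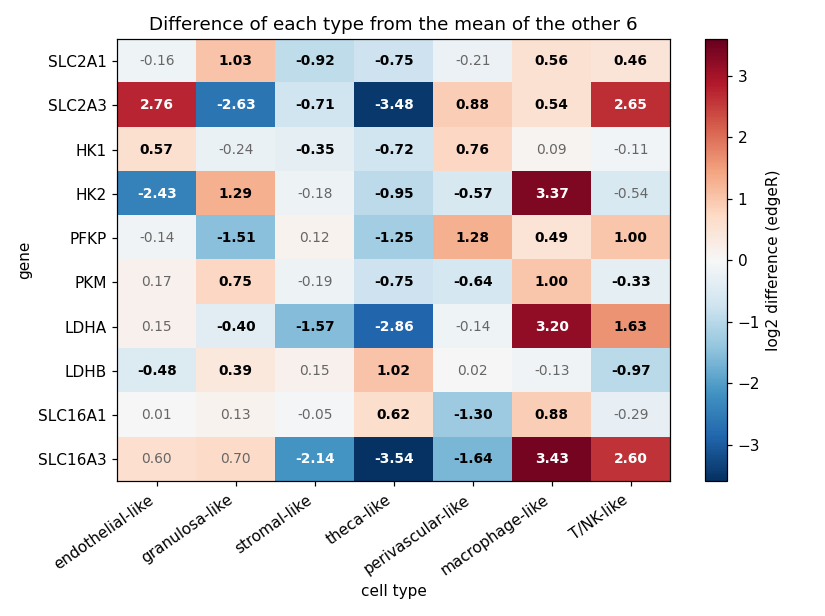
Log2 difference (edgeR) of each type from the mean of the other 6, with genes in rows and types in columns. Bold values passed an adjusted p of 0.05. In the macrophage-like column 8 genes were higher, and in the theca-like column 8 were lower, the exceptions there being LDHB and SLC16A1.

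Counted over the 10 genes, 4 were higher in granulosa-like cells (SLC2A1, HK2, PKM and LDHB) and 3 lower (SLC2A3, PFKP and LDHA), where 29.9% of the 13846 genes tested were higher and 26.0% lower (56.0% in either direction). In theca-like cells 2 were higher and 8 lower, against 33.2% and 31.1% of all genes (64.3% in either). In macrophage-like cells 8 were higher and 0 lower, against 30.7% and 33.4% (64.1%). The PFKP call there (0.49) was lost without HLS1, without HLS3 and without the filter, the SLC2A3 call (0.54) without HLS2 and without the ewe as a block, and both, with that of SLC2A1, without TMM factors, which left 5 higher and 1 lower. In stromal-like cells 0 were higher and 5 lower, against 29.1% and 24.5% (53.6%). In T/NK-like cells 5 were higher and 2 lower, against 25.3% and 30.1% (55.4%). Perivascular-like cells had 3 higher and 4 lower, against 25.5% and 24.2% (49.7%), and endothelial-like cells had 2 higher and 2 lower, against 34.3% and 27.5% (61.9%). The median log2 difference of the 10 genes was 0.72 in macrophage-like cells, where the median of all genes was -0.11, and -0.85 in theca-like cells, where it was -0.0039. Without ewe LLS1, 2 genes were lower in perivascular-like cells and 1 was higher in stromal-like cells, and without HLS1, HLS2 or LLS3 only 1, LDHB, was lower in T/NK-like cells. Counts in a direction depend on the scaling, because scaling to total UMIs alone moved the median of all genes by 0.16 in granulosa-like, 0.18 in perivascular-like, 0.14 in stromal-like, -0.19 in macrophage-like and -0.25 in T/NK-like cells.

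The rest of the pathway was read from lists of glycolytic enzymes, regulators of glycolysis, further carriers, genes of pyruvate use and hypoxia-related genes, of which 38 genes were tested. The hypoxia list includes the factors HIF1A and EPAS1, and the levels of its genes are not read as a response to hypoxia. In macrophage-like cells 24 were higher and 8 lower, including 10 of the 11 glycolytic enzymes tested. HK3, a hexokinase of white blood cells, was 7.55 log2 units higher there, and the hypoxia genes ANKRD37 and EGLN3 were 3.77 and 2.94 higher. PFKM was 3.27 lower and the carrier SLC16A7 (MCT2) 2.78 lower in these cells. In granulosa-like cells 20 of the 38 were higher and 3 lower. The granulosa-like genes that stood out were PC, which makes oxaloacetate from pyruvate (3.32 higher), EMB, the embigin partner of lactate carriers (3.03 higher), ADM, which encodes adrenomedullin (3.03 higher), PFKFB4 (1.35 higher), HIF1A (1.16 higher) and EPAS1 (1.04 lower).

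In theca-like cells 17 of the 38 were higher and 9 lower. SLC16A7, known for a high affinity for lactate and pyruvate, was 5.01 log2 units higher in theca-like cells, at 69.1 CPM against 3.93 in granulosa-like cells. PC was 2.80 higher in theca-like cells, while EMB, ANKRD37, EGLN3 and PFKFB3 were 4.59, 3.12, 3.05 and 2.86 lower. Of the genes of pyruvate use, 6 of 10 were higher there and 1, the kinase gene PDK4, was lower. That list mixes MPC carriers and PDK kinases with enzymes that use pyruvate, so the count gives no direction of pyruvate use. Endothelial-like cells had 9 higher and 21 lower, with EPAS1 3.94 higher and EMB 4.90 lower. Stromal-like cells had 5 higher and 20 lower, perivascular-like cells 6 and 18, and T/NK-like cells 4 and 16.

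Gene choice within a pair was compared as the log2 ratio of UMIs in the same cells of the same ewe, which does not depend on the scaling. For LDHA against LDHB, LDHA made up 70.8% of the UMIs of both in macrophage-like cells and 63.1% in T/NK-like cells. Granulosa-like cells had a share of 17.3%, below endothelial-like (29.2%) and perivascular-like cells (23.1%) and above stromal-like (10.3%) and theca-like cells (3.04%). LDHA exceeded LDHB in 6 of 6 ewes in macrophage-like cells and in 5 of 6 in T/NK-like cells, and in no ewe in the other types. In granulosa-like cells the log2 ratio lay between -3.66 and -1.70 with a median of -2.0. It was 3.50 ± 0.90 (SD, n = 6) below that of macrophage-like cells and 2.61 ± 0.40 above that of theca-like cells of the same ewes, each in 6 of 6 ewes. Both gave p = 0.03125, the smallest that an exact sign-flip permutation test over 6 ewes allows, or 0.0395 adjusted over 24 tests (two-sided). The ratio was also 1.27 ± 0.64 below endothelial-like, 2.92 ± 0.50 below T/NK-like and 0.80 ± 0.60 above stromal-like cells with the same exact p. Against perivascular-like cells it was 0.55 ± 0.67 lower in 5 of 6 ewes (exact permutation p = 0.0625, adjusted 0.0682).

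SLC2A1 exceeded SLC2A3 in 6 of 6 ewes in granulosa-like cells, where the log2 ratio lay between 0.06 and 2.20. In theca-like cells it did so in 4 of 6 ewes, and in the other 5 types in none. The ratio of granulosa-like cells was above that of each of the other 6 types in 6 of 6 ewes (exact permutation p = 0.03125, adjusted 0.0395), by 0.93 ± 0.54 (SD, n = 6) against theca-like and by 5.69 ± 0.61 against endothelial-like cells. With ratios averaged over cells the difference from theca-like cells was 0.42 and did not pass (exact permutation, adjusted p = 0.113).

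HK1 exceeded HK2 in every ewe in 6 of the 7 types. In macrophage-like cells the pair was near balance, with a log2 ratio of -0.83 to 1.39 and HK1 ahead in 3 of 6 ewes. Granulosa-like cells, at 1.63 ± 0.48 (SD, n = 6), had a lower ratio than endothelial-like, stromal-like, theca-like, perivascular-like and T/NK-like cells in 6 of 6 ewes (exact permutation p = 0.03125, adjusted 0.0395). Against macrophage-like cells it was 1.33 ± 0.90 higher in 5 of 6 ewes (exact permutation p = 0.0625).

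SLC16A1 exceeded SLC16A3 in all ewes of every type but T/NK-like, where it did in 5 of 6. The granulosa-like ratio was above that of macrophage-like cells by 1.98 ± 1.63 (SD, n = 6) and of T/NK-like cells by 2.55 ± 2.61, and below that of theca-like cells by 3.10 ± 1.70, in 6 of 6 ewes each (exact permutation p = 0.03125, adjusted 0.0395). With so few SLC16A3 UMIs these ratios depend on the 0.5 UMI added to both genes.

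**Figure D3:**
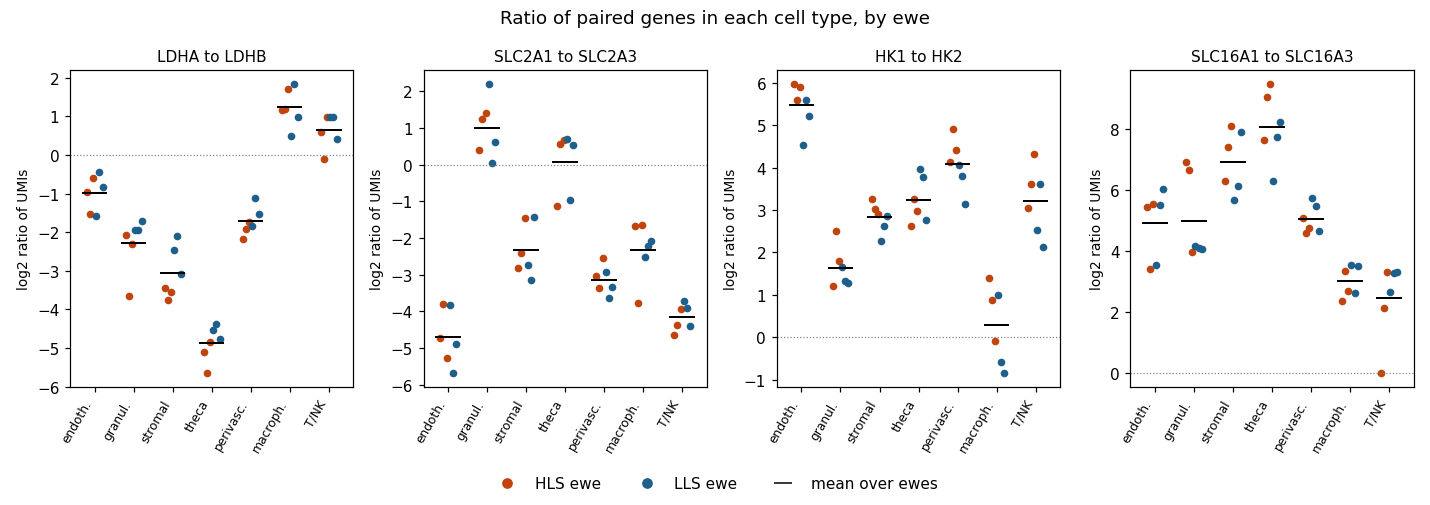
Log2 ratio of UMIs of each gene pair in the 7 cell types, with each point 1 ewe coloured by group and the bar the mean. The dotted line marks equal UMIs. LDHA exceeds LDHB in macrophage-like and T/NK-like cells, and SLC2A1 exceeds SLC2A3 in every ewe in granulosa-like cells.

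The granulosa-like cells were divided further into states. An early-type state (380 cells, named from WT1 and WNT6), an INHA and AMH high state (311), a cycling state (193, from 5 ewes) and a mural-type state (939, with IGFBP5, RUNX2 and HTRA3) had enough ewes to be tested. TNNI3, the remaining early-type marker, went against the name, at 360 CPM in early-type, 633 in INHA and AMH high and 736 in cycling cells. INHA was not highest in the state named for it, at 1129 against 1298 in cycling and 2899 in oestrogenic cells (described below). FST, HSD17B1, IHH and INHBB were also higher in cycling cells. AMH was highest in the named state (340 against 288 in cycling cells). The mural-type state was not alike in all ewes, since 175 of the 180 cells of a sub-cluster came from ewe HLS1 and 183 of 186 cells of another from ewe LLS2. A smaller mural-type sub-cluster of 52 cells, 26 of them from LLS2, was shallow, with a median of 2611 UMIs per cell. LDHA was among its 10 leading genes, and its part in the mural-type LDHA level was not tested. Of the granulosa markers, INHA, AMH, FST, HSD17B1 and IHH were low in it (14.6, 6.08, 42.0, 17.8 and 0.28 CPM). In INHA and AMH high cells they held 1129, 340, 2260, 797 and 109. CITED2, a mural-type marker, was higher in oestrogenic cells (201 against 159). A cluster of 859 cells was named granulosa-like from the mural-type markers, with stromal markers next. PFKP and SLC16A3 did not pass the filter on low counts, which left 8 of the 10 genes tested.

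In mural-type cells SLC2A1, HK2 and PKM were higher than in the other states. SLC2A1 held 66.2 to 132 CPM (median 96.7), HK2 46.8 to 126 (median 75.0) and PKM 528 to 900 (median 762). The means of the other tested states were 35.7 to 53.4 for SLC2A1, 14.1 to 42.6 for HK2 and 262 to 421 for PKM. Macrophage-like cells held SLC2A1 at 40.9 and PKM at 462. The levels given above for granulosa-like cells combine these states. Against the mean of the other states, SLC2A1 was higher by 1.32 ± 0.14 (SE) log2 units, HK2 by 1.68 ± 0.19 and PKM by 1.17 ± 0.12, in 6 of 6 ewes each (edgeR adjusted p = 1.25e-09, 8.85e-09 and 4.91e-10). Of the 8 genes 4 were higher, LDHA the other (0.99 ± 0.25, edgeR adjusted p = 0.00149), and 1, HK1, was lower (-0.33, edgeR adjusted p = 0.0166), where 27.3% of the 7876 genes tested were higher and 25.7% lower (53.0% in either direction). Mean LDHA was 135 CPM in mural-type cells, against 203 in cycling, 166 in INHA and AMH high and 11.9 in early-type cells. The LDHA call is thus against a mean that includes early-type cells. The LDHA call was lost when doublets were kept (0.66, edgeR adjusted p = 0.0508) and at a mitochondrial limit of 20% (0.48), and the HK1 call was lost without ewe HLS1 or LLS1. Of the 8 other glycolytic enzymes tested only GPI and PGAM1 were higher (0.35 and 0.52, edgeR adjusted p = 0.0463 and 0.0013), 0 were lower, and the median of the 8 was 0.10, where that of all genes was -0.0057. Among the further pathway genes, NDRG1, ADM and PDK4 were 3.30, 0.86 and 0.85 higher, and EMB, HIF1A and VEGFA were 3.01, 1.25 and 0.86 lower. Summed theca markers were at 12.8% of their theca-like level in mural-type cells, and their part in these values was not tested.

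Early-type cells were low in 4 of the 8 genes. They were shallower, with a median of 4168 UMIs per cell against 10901 to 12113 in the other tested states. Their median mitochondrial share was 5.82%, against 3.27% to 4.38%. FOS, FOSB, JUN, JUNB, ATF3 and EGR1, which rise with cell stress among other signals, were highest there among the tested states, FOSB at 2409 CPM against 579 to 811. The part of these traits in the values was not tested. LDHA gave 21 UMIs over the 6 ewes, or 5.11 to 37.7 CPM with a median of 6.52. It was 3.88 ± 0.43 (SE) log2 units lower than the mean of the other states (edgeR adjusted p = 1.73e-08, 6 of 6 ewes). HK2 was lower by 1.97 ± 0.34, PKM by 1.05 ± 0.15 and LDHB by 0.72 ± 0.11 (edgeR adjusted p = 3.04e-05, 9.34e-07 and 5.41e-06). HK2 gave 22 UMIs over the 6 ewes, with 0 in ewe HLS1. At such counts the size of the LDHA and HK2 folds depends on the prior count. HK1 was the exception, at 246 to 324 CPM (median 281) and 0.74 ± 0.13 higher (edgeR adjusted p = 2.04e-05). Of all genes 21.1% were higher and 21.7% lower (42.8% in either direction). All 8 of the other glycolytic enzymes tested were lower, ENO1, PFKL, PGAM1 and PGK1 by 1.89, 1.80, 1.60 and 1.43. PDK3 and BNIP3 were 1.80 and 1.43 lower, and PFKFB2 was 1.37 higher. When the cells were grouped anew at a mitochondrial limit of 20%, the name fell on 120 cells that shared only 3 with these 380, so the early-type state depends on that limit. In those other cells HK1 was -0.17 (edgeR adjusted p = 0.726), LDHB -0.24 (0.339) and HK2 -1.89 (0.0722).

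INHA and AMH high cells held LDHA at 45.9 to 275 CPM (median 178). It was 1.40 ± 0.27 (SE) log2 units above the mean of the other states, early-type cells included, in 6 of 6 ewes (edgeR adjusted p = 0.000222). Mean LDHA was 166 CPM, against 203 in cycling and 135 in mural-type cells, and neither difference exceeded its SD. LDHB was 0.43 ± 0.10 higher (edgeR adjusted p = 0.00207) and SLC16A1 0.34 ± 0.12 higher (edgeR adjusted p = 0.0409), whereas SLC2A1 and HK1 were lower (-0.59 and -0.40, edgeR adjusted p = 0.0182 and 0.0255). These 3 higher and 2 lower genes compare with 13.8% and 10.2% of all genes (24.0% in either direction). The SLC16A1 call was lost without any of 5 ewes (all but LLS2), the HK1 call without HLS3, LLS2 or LLS3, and the SLC2A1 call without HLS2. At the 20% limit, where 238 of the 311 cells kept the name, LDHB was 0.25 (edgeR adjusted p = 0.132), and HK1 and SLC2A1 were 0.027 and 0.18. Of the 8 other glycolytic enzymes tested 6 were higher, PFKL by 0.73. EMB, PDK3, HIF1A and VEGFA were 2.51, 0.98, 0.96 and 0.89 higher, and NDRG1 was 0.90 lower.

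Cycling cells held LDHA at 54.1 to 524 CPM (median 111) over 5 ewes, the highest in LLS1. It was 1.49 ± 0.28 (SE) log2 units above the mean of the other states, early-type cells included, in 5 of 5 ewes (edgeR adjusted p = 8.83e-05). LDHB was 0.31 ± 0.11 higher in 4 of 5 ewes (edgeR adjusted p = 0.0227) and SLC2A1 0.63 ± 0.20 lower (log2 difference -0.63, edgeR adjusted p = 0.0118), against 19.2% of all genes higher and 17.5% lower (36.6% in either direction). The LDHB call was lost without HLS2, HLS3 or LLS2 and the SLC2A1 call without HLS2 or LLS2. All 8 other glycolytic enzymes tested were higher, among them ENO1 by 1.06 and TPI1 by 1.05. Among the further pathway genes, NDRG1 and PDK4 were 2.71 and 1.15 lower, and EMB and PDK3 were 1.29 and 1.14 higher.

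Scaling to total UMIs alone moved the median of all genes by 0.18 in early-type and by -0.12 in INHA and AMH high cells. Across states the ratio of LDHA to LDHB moved with LDHA. Its mean log2 value was -1.80 in cycling, -1.88 in mural-type and -1.91 in INHA and AMH high cells, and -4.86 in early-type cells, with LDHB ahead in every ewe of every state. Mean HK1 to HK2 was 0.94 in mural-type and 4.46 in early-type cells. The early-type values of both ratios, on 21 LDHA and 22 HK2 UMIs, depend on the 0.5 UMI added. SLC2A1 exceeded SLC2A3 in 6 of 6 ewes in mural-type and in 4 of 5 in cycling cells. In early-type and in INHA and AMH high cells it did so in 3 of 6 ewes each. These values are a description. Macrophage markers in the states stood at 0.159% to 0.484% of their macrophage-like level. Endothelial markers stood at 1.85% to 5.39% of their endothelial-like level and stromal markers at 0.753% to 6.37% of their stromal-like level. Their part in the SLC2A3 levels and ratios of the states was not tested.

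**Figure D4:**
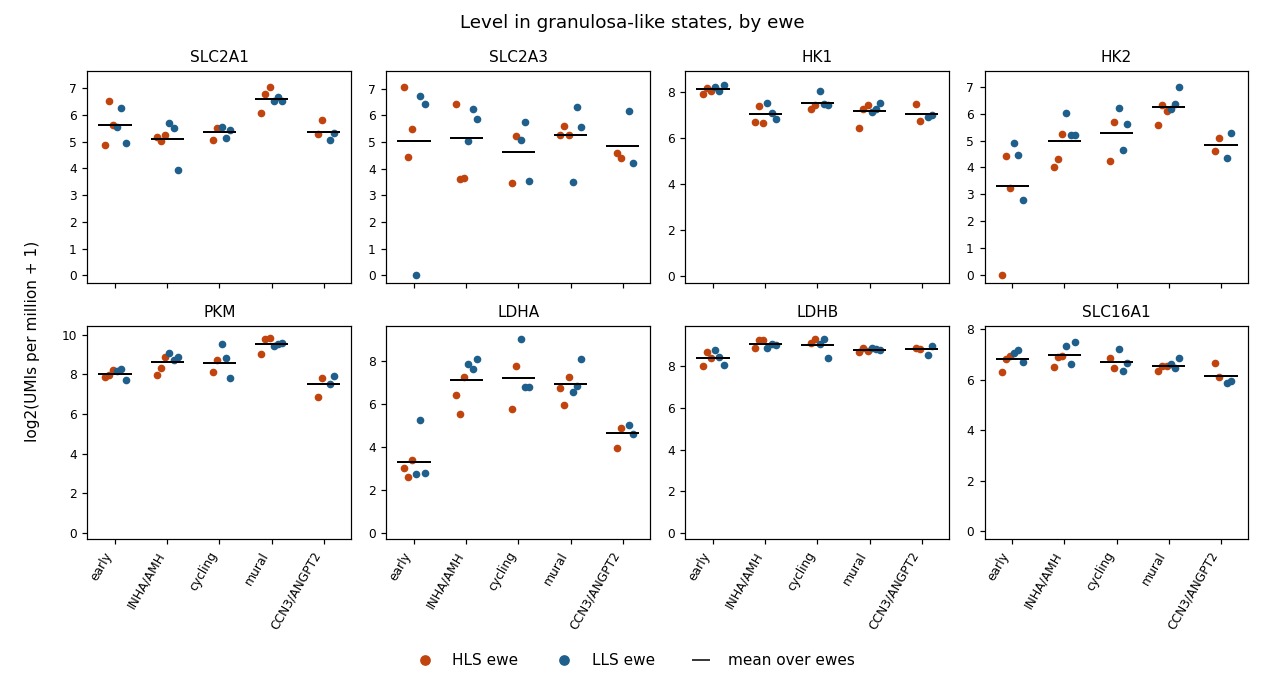
Level of 8 of the genes in 5 granulosa-like states, as log2 of CPM plus 1, with each point 1 ewe coloured by group and the bar the mean. LDHA is lowest in early-type cells and in the cells led by CCN3 and ANGPT2, and SLC2A1, HK2 and PKM are highest in mural-type cells.

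The remaining granulosa-like states had too few ewes or were unnamed, and their values were not tested. Cells led by CCN3 and ANGPT2 (539 cells, 4 ewes) held LDHA at 14.7 to 32.1 CPM with LDHB at 372 to 504, a mean log2 ratio of -4.17, and held PKM at 116 to 240. The oestrogenic state, with CYP19, INHBA and LHCGR, had at least 10 cells in only 2 ewes. It was shallow, with a median of 2568 UMIs per cell, and its summed theca markers were at 33.4% of their theca-like level, whose part in the values was not tested. Ewe HLS2 gave no LDHA in 78952 UMIs, where a count of 0 allows up to 38.0 CPM, and ewe LLS1 gave 32.4, so a difference was not detectable at this depth. SLC2A1 was at 50.7 and 82.3 in these ewes. Cells led by KLK1 and CCL25 were shallow, with a median of 2666 UMIs per cell, and held LDHB at 486 to 648.

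Over the 42 sums of type and ewe, the genes whose log2 level was most like that of LDHA were ARPC1B, EFHD2 and OSTM1, with Pearson r of 0.953, 0.952 and 0.949. Those most like LDHB were P4HB, SLC25A1 and MTFP1 (r of 0.906, 0.894 and 0.891), and those most like SLC2A1 were RASSF3, ELL2 and BCL2L11 (0.747, 0.747 and 0.728). Among the 10 genes, LDHA was most like SLC16A3 (r = 0.886) and ran against LDHB (r = -0.642), and LDHB ran against SLC2A3 (r = -0.890). The sums share ewes and libraries, so these are descriptions.

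HLS and LLS ewes were compared within each type to ask whether the genes differed with litter size. Of the 8 to 10 genes tested in each type, 0 passed in any of the 7 types with edgeR, and 0 passed with DESeq2 or under the other settings run. In granulosa-like cells 0.0% of the 11893 genes tested passed, 536 genes (4.51%) had an unadjusted p under 0.05, 1 of them HK2, and DESeq2 called 1 gene. In the other 6 types 0 genes passed in edgeR, 153 to 521 had an unadjusted p under 0.05, and DESeq2 called 0 to 23. Those unadjusted shares were 1.18% for endothelial-like, 3.44% for stromal-like, 3.43% for theca-like, 3.32% for perivascular-like, 5.9% for macrophage-like and 2.71% for T/NK-like cells. In counts simulated from the granulosa-like sums, 70% of genes changed 4-fold and 14% of those changed 2-fold were recovered.

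With scaling to total UMIs alone the median HLS minus LLS difference of all genes moved by -0.18 in granulosa-like, -0.17 in theca-like, -0.12 in T/NK-like and -0.11 in perivascular-like cells.

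Among the genes tested in each type, LDHA was the gene whose groups most often did not overlap. In granulosa-like cells the HLS ewes held 97.2, 43.0 and 93.7 CPM and the LLS ewes 117, 125 and 140. In stromal-like cells the HLS ewes held 31.6, 33.7 and 39.7 and the LLS ewes 61.7, 82.2 and 53.0. In perivascular-like cells they held 73.1, 101 and 107 against 125, 147 and 156. The LLS ewes were the higher in these types and in theca-like cells (15.6, 13.6 and 21.7 against 23.5, 21.8 and 25.8). The fitted difference of HLS from LLS was -0.51 ± 0.32 (SE) log2 units for granulosa-like cells (edgeR adjusted p = 0.962) and -0.81 ± 0.19 for stromal-like cells (0.915). It was -0.51 ± 0.19 for perivascular-like cells and -0.32 ± 0.24 for theca-like cells (edgeR adjusted p = 0.989 and 0.970). In endothelial-like, macrophage-like and T/NK-like cells the groups overlapped, with differences of 0.03, 0.46 and -0.33. Groups that do not overlap were found for 13.3% of all genes and 2 of the 10 in granulosa-like cells, and for 8.23% of all genes and 2 of 9 tested in stromal-like cells. The values were 9.46% and 1 of 9 for perivascular-like cells and 10.5% and 1 of 9 for theca-like cells.

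HK2 was the other gene without overlap. In granulosa-like cells the HLS ewes held 40.1, 29.6 and 43.1 CPM and the LLS ewes 54.2, 62.8 and 66.6, a difference of -0.52 ± 0.22 (SE) log2 units (edgeR adjusted p = 0.962). HK2 was also without overlap in stromal-like cells (-0.60 ± 0.26, edgeR adjusted p = 0.915) and in endothelial-like cells (-0.65 ± 0.30, edgeR adjusted p = 1.0), where 4.29% of all genes and 1 of the 10 did not overlap. In T/NK-like cells HK2 did not pass the count filter, and its groups did not overlap there either, on 4 to 15 UMIs per ewe. The HLS ewes held 7.76, 9.35 and 7.87 CPM and the LLS ewes 24.9, 10.6 and 27.1. Of all genes tested in that type 7.32% did not overlap. The makeup of the granulosa-like cells differed between ewes, with mural-type cells at 72.8%, 15.4% and 25.2% for HLS against 27.0%, 50.8% and 26.9% for LLS. Oestrogenic cells made up 40.5% in LLS1 and 0.11% to 6.11% elsewhere. Cells led by CCN3 and ANGPT2 made up 36.3% in HLS3, 35.4% in LLS3 and 2.15% to 13.1% elsewhere. INHA and AMH high cells made up 31.4% in HLS2 and 3.74% to 17.4% elsewhere. The part of this makeup in the granulosa-like values was not tested. Within INHA and AMH high cells LDHA did not overlap between the groups, at 85.0, 45.9 and 156 in the HLS ewes against 231, 201 and 275, while HK2 overlapped. SLC16A3 also did not overlap there, on 0 to 16 UMIs per ewe. The sums were small, with 12 cells and 17 LDHA UMIs in ewe HLS1. The share of all genes without overlap was not counted within states, so these cases cannot be set against it. Within mural-type cells LDHA and HK2 overlapped, with LDHA at 108, 60.4 and 155 in the HLS ewes against 94.7, 115 and 275, and HK2 at 46.8, 79.7 and 67.2 against 70.4, 81.0 and 126. The LDHA to LDHB log2 ratio in granulosa-like cells was -2.68 ± 0.86 (SD, n = 3) in HLS and -1.86 ± 0.13 in LLS ewes (exact permutation p = 0.1, two-sided, the smallest that 3 against 3 allows).

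**Figure D5:**
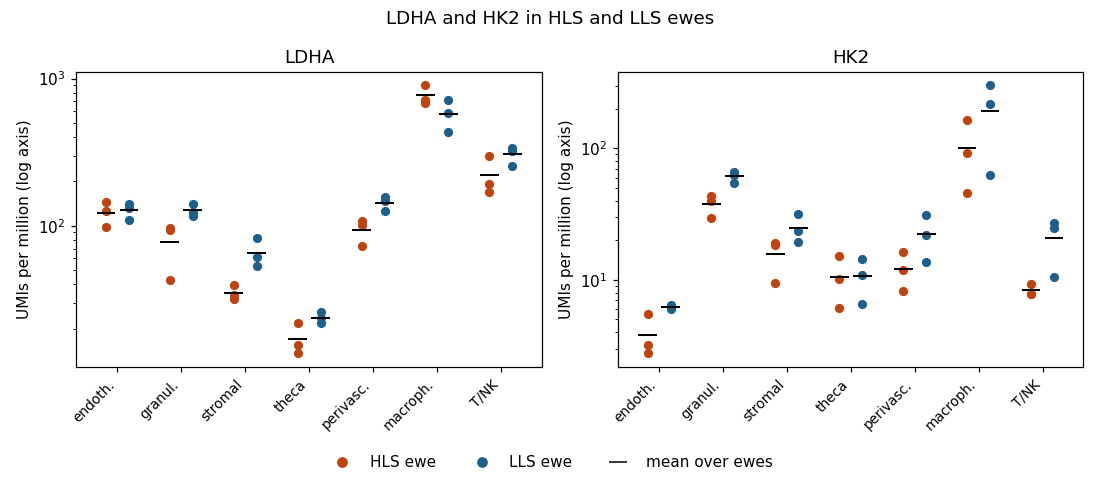
LDHA and HK2 in CPM on a log axis, by cell type, with each point 1 ewe of the HLS or LLS group and the bar the group mean. For LDHA the groups do not overlap in granulosa-like, stromal-like, theca-like and perivascular-like cells, and no difference passed the adjusted threshold.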

How the data were processed

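Gene counts per cell barcode were deposited for each of the 6 ovaries. Per the labels and the study's methods, the authors prepared 10x Chromium 3′ v3 libraries and made these UMI counts with Cell Ranger (v5.0.0) and STAR. The methods also describe down-sampling of reads across samples, and whether the deposited counts were down-sampled is not stated. The genome build was not given in the sources used here. PFKP and SLC16A1 were listed under gene numbers and were matched through RefSeq. No sequence or coordinate was analysed here.

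Of 52290 barcodes, 38464 passed the filters stated by the study (at least 200 genes and 1000 UMIs, a log10 genes per UMI of at least 0.7, at most 10% mitochondrial and 5% haemoglobin counts), fewer than the number of cells the study states. Simulated doublets removed 2007 cells (5.22%). The other 36457 were clustered (leidenalg 0.10.2, 2000 variable genes, 30 components, resolution 0.8) without the 10 genes and the pathway lists, and named from marker lists. Other genes of the same cells drew the groups, so p-values between types and states are not independent of the grouping. The minimum marker scores (0.3 for types, 0.6 for states), the use of mural-type markers for naming granulosa-like clusters, the rule that endothelial and lymphatic markers were not counted against each other, and the removal of 3 sub-clusters led by another type were chosen after the clusters were seen.

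UMIs were summed per ewe and type or state with at least 10 cells. Each type or state was compared with the mean of the others by edgeR 4.0.16 (R 4.3.3, quasi-likelihood test, TMM factors, ewe as a block), and HLS with LLS without a block, with Benjamini-Hochberg adjustment over all genes tested and a threshold of 0.05. Gene pairs were tested by exact sign-flip permutation over ewes with 0.5 UMI added. The edgeR step was checked on simulated counts in which 200 of 13266 genes changed between granulosa-like and other types, of which it recovered 80% with 7 false calls. All types otherwise shared the same profile in those counts. In the real comparison 56.0% of genes were called, so the check does not cover the effect of scaling. Results were recomputed with DESeq2 1.42.0, other scalings and filters, other cell filters and leaving out each ewe. All 10 genes are named. Of the pathway lists, up to 6 per comparison are named for the largest change past the threshold, together with counts. PFKM and PFKL in granulosa-like, PDK4 in theca-like, GPI and PGAM1 in mural-type and PFKFB2 in early-type cells are named besides. The genes and lists were chosen with earlier results of these data known. Reads shared with near-identical copies of these genes were not examined.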

Additional observations from a re-analysis of the deposited data

Results flagged for a closer look

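In 6 of the 77 sets of 6 ewes examined, the highest or lowest ewe lay further from the nearest other than expected for the range of the set (Dixon's test at 95%), and chance alone flags about 1 in 20 such sets. HK1 in granulosa-like cells was lowest in ewe HLS1, at 93.6 CPM with the nearest ewe at 149. HK1 in stromal-like cells was also lowest in HLS1, at 91.1 with the nearest at 141. The LDHA to LDHB log2 ratio in granulosa-like cells was lowest in ewe HLS2, at -3.66 with the nearest at -2.31. SLC2A3 in perivascular-like cells was highest in ewe LLS2, at 523 CPM with the nearest at 289. LDHB in macrophage-like cells was lowest in LLS2, at 199 with the nearest at 274. SLC16A3 in theca-like cells was highest in ewe LLS1, at 0.938 with the nearest at 0.32, which rests on 1 UMI.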

How the results depend on the processing

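Of the 336 alternative values of called genes across types with all ewes, 320 kept direction and call and 16 kept direction only, and of 126 across granulosa-like states 103 kept both. Values that were not called changed sign in 7 of 154 cases across types, 17 of 98 across states and 7 of 70 for HLS against LLS, and 11, 5 and 0 became called. With TMM factors left out, the higher genes were 67.4% of calls in granulosa-like cells (53.5% with them), 69.9% (51.3%) in perivascular-like, 69.5% (54.4%) in stromal-like, 37.3% (47.9%) in macrophage-like, 31.3% (45.7%) in T/NK-like, 36.3% (57.5%) in INHA and AMH high and 66.2% (49.3%) in early-type cells. Members higher were then 1 in stromal-like and 5 in macrophage-like cells, and members lower 1 in macrophage-like and 5 in T/NK-like cells. Without the count filter 1 member was higher in stromal-like cells. The causes were not tested. For HLS against LLS, counts simulated from granulosa-like sums gave 14% of 2-fold changes recovered, and the other types were not simulated.

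At a mitochondrial limit of 20%, which regrouped the cells and gave the early-type name to 120 cells that shared 3 with the 380, HK1 was -0.17 in early-type cells (0 members higher, 1587 genes called), HK1 and SLC2A1 were 0.027 and 0.18 in INHA and AMH high cells (0 members lower, 1199 genes), SLC2A1 was 0.058 in cycling cells (1 member higher, 0 lower), 0 members were lower in mural-type cells, and the SLC16A1 to SLC16A3 difference between granulosa-like and endothelial-like cells was -0.058. Members lower in INHA and AMH high cells were 1 with doublets kept and 0 at 2 times the resolution, which also left 1 member higher in cycling cells. Members lower in mural-type cells were 2 with DESeq2 or doublets kept and 0 without the filter. With ratios averaged over cells, LDHA to LDHB in granulosa-like cells differed by 0.49 from stromal-like (adjusted p = 0.273) and by -1.25 from perivascular-like cells (0.0417), SLC2A1 to SLC2A3 by 0.42 from theca-like (0.113), HK1 to HK2 by 1.83 from macrophage-like (0.0417) and SLC16A1 to SLC16A3 by -3.19 from theca-like cells (0.0789). With doublets kept LDHA to LDHB differed by 0.77 from stromal-like cells (adjusted p = 0.0714).

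For HLS against LLS, DESeq2 called 23 genes in macrophage-like, 7 in endothelial-like, 4 in perivascular-like, 3 in T/NK-like and 1 each in stromal-like and granulosa-like cells. Without the filter 56 were called in theca-like, 26 in perivascular-like, 164 in macrophage-like and 30 in T/NK-like cells. Doublets kept gave 3 in macrophage-like cells and no TMM factors 1 in T/NK-like cells. None was a member.

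Leaving out each ewe in turn gave 0 to 1 member higher in stromal-like cells and 2 to 4 lower in perivascular-like, 1 to 3 lower in T/NK-like, 1 to 2 lower in INHA and AMH high, 0 to 1 lower in mural-type, and 1 to 3 higher and 0 to 2 lower in cycling cells. Genes called were 2095 to 3486 in early-type, 1229 to 1868 in INHA and AMH high, 2698 to 4393 in mural-type and 1884 to 2909 in cycling cells. For HLS against LLS they were 0 to 2 in endothelial-like, stromal-like and T/NK-like, 0 to 1 in theca-like and perivascular-like and 0 to 6 in macrophage-like cells. The exact sign-flip test over 5 ewes cannot go below p = 0.0625, so for the ratios only their values were compared. All 144 moved by less than 1 SD, but leaving out 1 of 6 ewes cannot move such a mean further, so this carries no information. The LDHA to LDHB difference of granulosa-like cells ran from -3.71 to -3.23 against macrophage-like and from 2.52 to 2.74 against theca-like cells. For SLC16A1 to SLC16A3 it ran from -0.57 to 0.48 against endothelial-like and from -0.49 to 0.24 against perivascular-like cells.

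The labels give no pairing of same-numbered HLS and LLS ewes. Such ewes deviated with correlations of -0.37 to 0.32 and no type had all pairs above 0.1, which cannot exclude shared handling. HLS3 and LLS3 correlated positively in every type, at 0.053 to 0.32, and the cause was not tested. A replicate block on the ewe number gave 0 members in every type, 2 genes in macrophage-like cells and 0 genes in the other types. Between types and states the ewe was the block, and with no replicate block 1 member was higher in cycling cells, and the LDHA difference of granulosa-like cells was -0.37 and no longer called.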

Other observations

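Cell types that were not tested showed further contrasts. Luteal-like cells, of which 107 of 108 came from ewe LLS3, held PKM at 951, LDHA at 643 and LDHB at 928 CPM in that ewe, against 443, 140 and 456 in its granulosa-like cells. There is no replicate for these values. Lymphatic endothelial-like cells held SLC2A3 at 167 ± 105 (SD, n = 6) and SLC16A1 at 24.9 ± 9.54 CPM, where endothelial-like cells held 835 ± 402 and 78.9 ± 11.6. Their LDHA share of both dehydrogenase genes was 36.6%, against 29.2% in endothelial-like cells. Epithelial-like cells, with 4 ewes, held HK2 at 24.4 ± 8.0 and LDHA at 34.3 ± 26.6 (SD, n = 4). Schwann-like cells, with 5 ewes, held LDHB at 279 ± 52.3 (SD, n = 5). None of these differences was tested.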
